A study of Mus musculus with 4 samples.

Results

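The Cd209a dendritic cells are a small population of antigen-presenting cells in MC38 tumors, defined here by transcripts of Cd209a, a C-type lectin of the DC-SIGN family. They were chosen by their own counts. A cell belonged to the population if it had at least 500 detected genes, at most 10% mitochondrial UMIs (unique molecular identifiers, 1 per captured molecule) and at least 2 Cd209a UMIs. It could hold at most 1 UMI of Xcr1 plus Clec9a, at most 1 of Ccr7, at most 2 of the CD3 genes Cd3d, Cd3e and Cd3g, at most 1 of Ncr1 plus Klrb1c, and under 0.2% of its UMIs from the complement genes C1qa, C1qb and C1qc. This left 190 of the 28290 deposited cells, which were 68 cells of isotype control, 61 of single antibody A, 27 of single antibody B and 34 of the combination.

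The question of the study was how blocking Fc gamma receptor II (FcγRII) alters treatment with an antibody to human CTLA-4. MC38 is a transplanted mouse colon carcinoma, and its cells were injected under the skin of C57BL/6 mice that carry human CTLA-4 (B-hCTLA-4), an allele that all 4 groups shared, isotype control included. Mice were treated 3 times from a tumor size of 100 mm3 with a human IgG1 isotype control at 10 mg/kg, with 1 of the antibodies, or with the anti-human CTLA-4 antibody ipilimumab at 10 mg/kg plus anti-mouse FcγRII at 20 mg/kg, and tumors of 11 mice were pooled for each library on day 8. Viable CD45+ cells were sorted, fixed and profiled with the probe-based Chromium Flex assay, in 1 library per group.

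The records of both libraries of a single antibody contradict themselves, as title and treatment field give different antibodies. Single antibody A is the library titled anti-human CTLA-4, and single antibody B the library titled anti-mouse FcγRII, and which of them received which antibody was not settled. The article gives other numbers of tumors, doses, tumor sizes and days than the sample records, which were followed here. The article gives an age for its C57BL/6J and BALB/c mice and none separately for the B-hCTLA-4 mice. With 1 library per group there is no replicate error, no test between groups was made, and each group cannot be told apart from its library. An exact paired permutation test over the 4 libraries could not go below p = 0.125. The 95% intervals given are exact binomial for shares and normal-approximation intervals on the log scale for ratios of shares. For counts and their ratios they are exact Poisson or conditional. All of them express counting error alone.

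Dendritic cells take up antigen and present it on MHC class II molecules to CD4 T cells. Conventional dendritic cells of type 2 depend on the cytokine receptor FLT3 and on the transcription factor IRF4, whereas monocytes that enter an inflamed tissue carry the receptor for macrophage colony-stimulating factor, CSF1R, and can take on dendritic features, Cd209a and MHC class II among them. Cd209a is therefore shared by cells of both origins, and transcripts of Flt3 and Csf1r are the usual first markers to tell them apart.

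The MHC class II genes recur in the results below, and a promoter element known to be shared by many of them is shown first. The Y box, an inverted CCAAT element bound by NF-Y, is part of the promoter module through which the coactivator CIITA acts. Promoters of 8 of the 11 class II genes examined below were matched in RefSeq (GRCm38.p6, 250 bases before to 50 after the start), and the 7 letters TGATTGG, searched on both strands, were present in 6 of them, against 7.82% of all 32851 promoters of the table. In the following 50-base windows, 5′ to 3′ on the strand of the gene, capitals mark the match. It begins between 45 and 92 bases before the start.
H2-Aa (chr17:34287854-34287903, minus strand): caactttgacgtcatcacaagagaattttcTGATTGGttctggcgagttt
H2-Eb1 (chr17:34305776-34305825, plus strand): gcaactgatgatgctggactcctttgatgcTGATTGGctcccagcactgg
H2-DMb1 (chr17:34153098-34153147, plus strand): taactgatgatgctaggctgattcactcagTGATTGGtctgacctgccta
H2-DMb2 (chr17:34145127-34145176, plus strand): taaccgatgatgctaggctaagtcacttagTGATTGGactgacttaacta
H2-Oa (chr17:34092304-34092353, plus strand): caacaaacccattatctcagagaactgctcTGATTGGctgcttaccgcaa
H2-Ob (chr17:34238816-34238865, plus strand): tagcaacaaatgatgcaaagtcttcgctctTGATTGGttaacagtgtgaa

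The letters were not found in the windows of H2-DMa and Ctss, and H2-Ab1, Cd74 and Ciita were not matched in the promoter table used here. A match is a description of the letters only. In the GENCODE vM21 annotation of GRCm38, Cd209a lies on chromosome 8 from 3743397 to 3748984 on the minus strand, Flt3 on chromosome 5 from 147330741 to 147400489 on the minus strand, and H2-Ab1 on chromosome 17 from 34257689 to 34269419 on the plus strand.

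The Cd209a cells made up under 1% of each library, and were scarcer in the combination and in single antibody B than in the other libraries. They were 0.835% of the cells of isotype control (interval 0.649 to 1.06%), 0.959% of those of single antibody A (0.734 to 1.23%), 0.444% for single antibody B (0.293 to 0.645%) and 0.447% for the combination (0.310 to 0.625%), of 8148, 6364, 6083 and 7599 cells within the limits on genes and mitochondrial UMIs. The libraries thus fell into a pair with higher and a pair with lower shares, with no overlap of the intervals between the pairs. The combination stood at 0.536 times isotype control (interval 0.356 to 0.808), at 0.467 times single antibody A (0.307 to 0.709) and at 1.01 times single antibody B (0.609 to 1.67). Single antibody B stood at 0.532 times isotype control (0.341 to 0.830) and single antibody A at 1.15 times (0.814 to 1.62). Because the rule needs 2 UMIs and depth differs between libraries, cells with at least 4280 UMIs were also drawn down to that depth. This left out 858, 719, 373 and 869 shallower cells. The shares were then 0.806, 1.02, 0.406 and 0.459%, in the same pairs. The thinned intervals of isotype control (from 0.617%) and the combination (to 0.653%) overlapped.

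**Figure D1:**
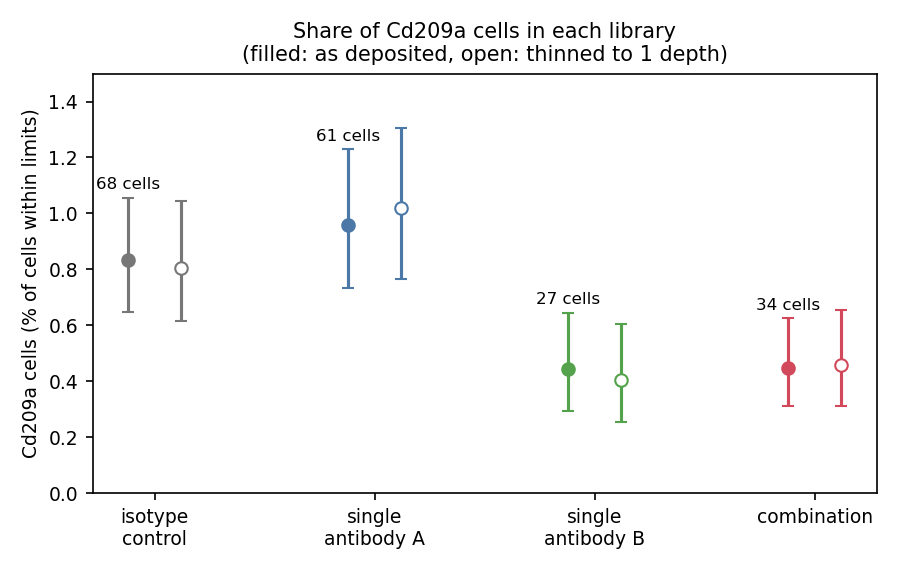
Share of Cd209a cells (y axis, % of cells within the limits) in the 4 libraries. Filled points are as counted, and open points are after cells with at least 4280 UMIs were drawn down to that depth. Bars are 95% exact binomial intervals. Isotype control and single antibody A lie above 0.8%, single antibody B and the combination below 0.5%, on both scales.

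Among gated dendritic cells the share depended on the other gates as well. Dendritic cells were also gated by at least 2 UMIs of Xcr1 plus Clec9a, and by at least 2 UMIs each of Ccr7 and Fscn1, which mark cells on their way to lymph nodes. Of these 3 gates together, the Cd209a cells were 44.4% in isotype control, 51.7% in single antibody A, 52.9% in single antibody B and only 19.9% when both antibodies were given. The low share in the combination moved with the Xcr1 or Clec9a gate, which held 53, 41, 14 and 111 cells. In the combination 92.8% of the cells of that gate had a Csf1r UMI and 6.31% a Flt3 UMI, so that it was not a clean gate for type 1 dendritic cells there, and their part in the share was not tested.

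The rule left out more Cd209a-expressing cells than it kept. At least 2 Cd209a UMIs were found in 224, 116, 61 and 82 cells, of which 156, 55, 34 and 48 failed another limit. The C1q limit took 203 of these 293 cells, the limit on Xcr1 and Clec9a 129, the CD3 limit 90, the limit on NK genes 36 and the Ccr7 limit 27, with overlaps. Counted without those limits, the combination had 0.393 times the share of isotype control. At the threshold itself, 58 cells that met all other limits had exactly 1 Cd209a UMI, 15 members had 2 and 16 had 3. The 58 cells just outside carried H2-Ab1 at 5110 UMIs per 1000000 (CPM) and Flt3 in 17.2% of cells, against 8415 and 26.7% in the members with 2 UMIs and 8523 and 44.6% in those with 3 or more. Among members 6 had 0.15 to 0.2% of C1q UMIs, and 3 cells lay just outside, from 0.2 to 0.25%. The members' median number of Cd209a UMIs per cell was 8, 15, 11 and 11, at a median depth of 8661, 9271, 9083 and 8602 UMIs.

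In all, the members held 682980, 764294, 329185 and 343726 UMIs of the 178178393, 129151823, 142472286 and 196362818 UMIs of the libraries. Levels below are in CPM, the UMIs of a gene summed over the members of a library per 1000000 of their UMIs, and always follow the order isotype control, single antibody A, single antibody B, combination. They are compared within a gene only, since the assay counts probes, and a summed level does not tell more cells with a transcript from more transcripts per cell. In single antibody B, 1 cell of 70187 UMIs supplied 21.3% of all member UMIs. No full cell barcode was shared between libraries. The first 16 bases, the droplet barcode, were shared by 5387 pairs of cells between libraries, none of them between members.

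Both Flt3 and Csf1r were detected in the population, often in the same cells. H2-Ab1, which with Cd209a and Flt3 marks these cells, had a UMI in 168 of the 190 members, so that 22 lacked this defining dendritic marker. Csf1r, the receptor of monocytes and macrophages, had a UMI in 92.6, 90.2, 88.9 and 94.1% of members. Flt3, the growth factor receptor of dendritic cells, had a UMI in 38.2, 41.0, 55.6 and 47.1%. The libraries did not separate on either gene, as the intervals of all 4 overlapped. Over all members 43.2% had Flt3 (interval 36.0 to 50.5%) and 91.6% had Csf1r. In the 171 members with at least 5917 UMIs, drawn down to that depth, these shares were 33.1 and 87.2%. Of the 190 cells, 106 had Csf1r without Flt3, 68 had both, 14 had Flt3 without Csf1r and 2 had neither. Among the 14, 6 had at least 2 UMIs of Siglech, a lectin of plasmacytoid dendritic cells, and are described below. The levels of Flt3 and Csf1r were negatively correlated over the 190 cells (Spearman -0.29), and over the 183 cells without such Siglech counts (-0.24).

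Set beside other gated cells, the Flt3 share was far above background and the Csf1r share near that of monocytes. In the Xcr1 or Clec9a gate of the 4 libraries, Flt3 had a UMI in 54.7, 29.3, 57.1 and 6.31% of cells. There Csf1r had a UMI in 45.3, 70.7, 78.6 and 92.8%. Flt3 had a UMI in 0.239% of NK cells and 0.386% of T cells, which should lack it (the T cell gate was not pure, with H2-Ab1 at 1299 CPM in isotype control), in 1.82% of Chil3 and Ccr2 monocytes, in 0.537% of C1q macrophages and in 66.7% of the Ccr7 and Fscn1 cells. Median depths were 4868 UMIs in the NK cells, 9707 in the monocytes and 21449 in the macrophages, against 8863 in the members. Csf1r had a UMI in 12.6% of the NK cells and 23.5% of the T cells, so that its background was higher. In the 502 NK cells and 823 T cells with at least 5917 UMIs, drawn down to that depth, these shares were 20.8 and 38.5%. Csf1r had a UMI in 99.6% of the monocytes, 99.8% of the macrophages and 10.7% of the Ccr7 and Fscn1 cells. The level of Csf1r in members was 646, 569, 541 and 640 CPM, below the 1372 of monocytes and 1595 of macrophages in isotype control. Zbtb46, a transcription factor of the conventional dendritic lineage, was found in 56.3% of members, against 12.5% of the NK cells, 5.40% of the T cells, 0.469% of the monocytes and 1.95% of the macrophages. It was found in 91.7% of the Ccr7 and Fscn1 cells, and in 58.5, 53.7, 64.3 and 8.11% of the Xcr1 or Clec9a gate by library.

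**Figure D2:**
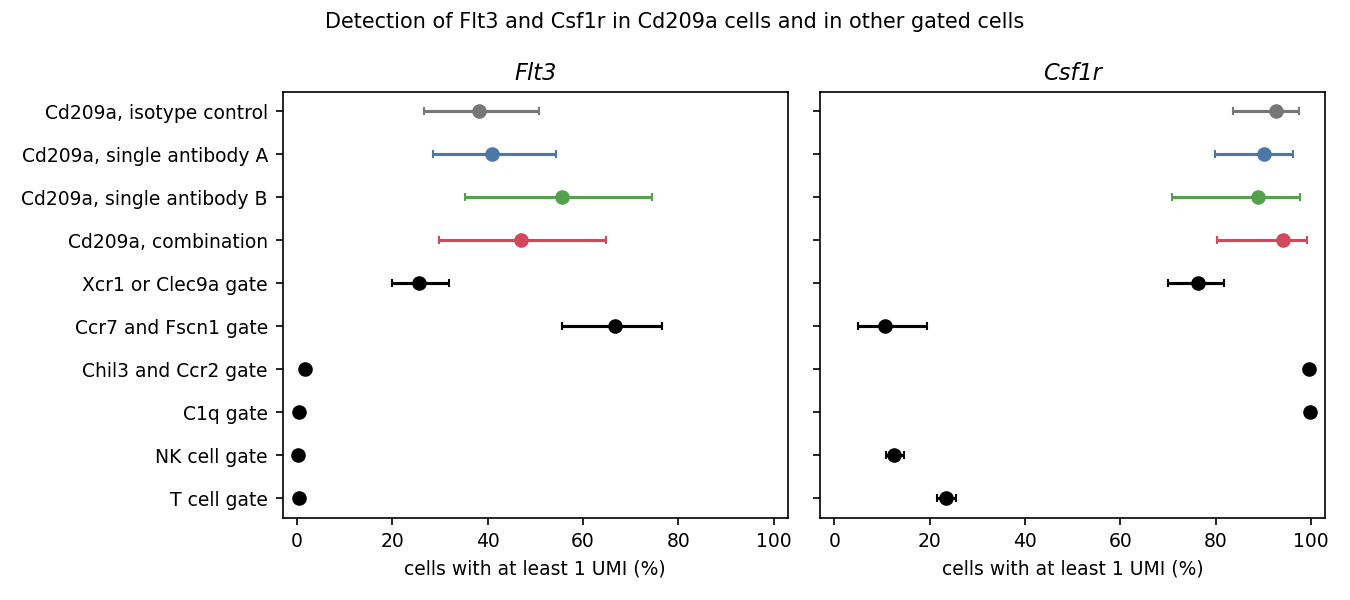
Share of cells with at least 1 UMI (x axis, %) of Flt3 (left) and Csf1r (right) in the Cd209a cells of each library and, pooled over libraries, in other gated cells; bars are 95% exact binomial intervals. Flt3 was found in 38.2 to 55.6% of Cd209a cells and in 1.82% of monocytes, while Csf1r was found in 88.9 to 94.1% of Cd209a cells.

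The members were not uniform in MHC class II. H2-Ab1, the beta chain of the class II molecule I-A, varied from 0 UMIs in 22 cells to a median of 7549 CPM over all cells. For description the population was divided at 2000 CPM of H2-Ab1, a limit set after the values were seen, and cells with at least 2 UMIs of Siglech, a lectin of plasmacytoid dendritic cells, were set apart. This gave 143 class II-high cells, 40 class II-low cells and 7 Siglech cells, and 23 cells lay between 1000 and 4000 CPM. The class II-high range held 82.4% of members in isotype control (interval 71.2 to 90.5%), 78.7% for single antibody A (66.3 to 88.1%), 63.0% for single antibody B (42.4 to 80.6%) and 64.7% for the combination (46.5 to 80.3%). The libraries fell into the same pairs as for the share of the whole population, but here the intervals overlapped.

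**Figure D3:**
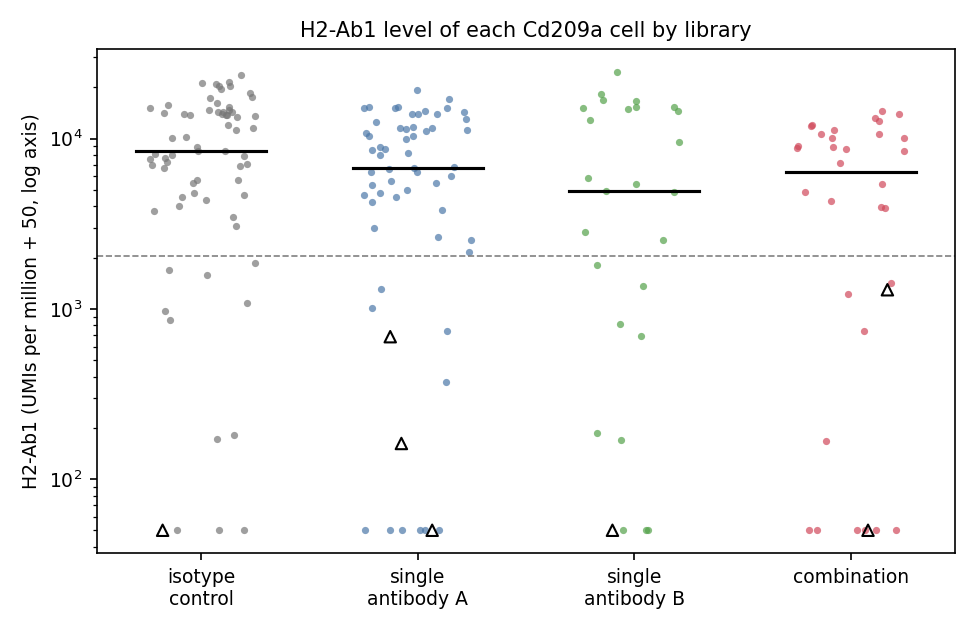
H2-Ab1 in each Cd209a cell (y axis, CPM plus 50, log axis) by library; horizontal bars are medians, the dashed line is the limit of 2000 CPM and triangles are cells with at least 2 Siglech UMIs. Most cells lie above the limit in every library, and 22 cells have no H2-Ab1 UMI.

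The class II-high and class II-low cells differed in several dendritic and monocyte genes in the same direction in all 4 libraries, and in others not. These comparisons rest on ranges of 1 gene and are a description. Higher in the class II-high cells were Mgl2, a galactose-binding lectin of type 2 dendritic cells (1026 against 25 CPM over all libraries), Kit, a receptor found on conventional dendritic cells (97.1 against 5.55), Ciita, the class II coactivator (846 against 128), Zbtb46 (204 against 41.6) and the integrin gene Itgax, which encodes CD11c (466 against 97.1). The class II-low cells carried more of genes known from classical monocytes, which were Hp, haptoglobin (605 against 19.5), F13a1, a coagulation factor subunit (1656 against 277), Lyz2, lysozyme (7679 against 2200), and Plac8 (4135 against 1744). Csf1r was also higher in them, at 849 against 560. Ccr2, a chemokine receptor of monocytes, was higher in the class II-low cells in 3 of 4 libraries (1018 against 806), and Fcgr1, an Fc receptor of monocytes and macrophages, divided 2 to 2 (258 against 255). The dendritic genes Dpp4 (162 against 133 in the class II-high cells, higher there in 3 libraries) and Cd7 (170 against 383, higher there in 1) did not separate in all libraries either. Flt3 did not follow this division. It was found in 42.7% of class II-high and 35.0% of class II-low cells, at 65.1 and 55.5 CPM, and was higher in the class II-high cells in 3 of 4 libraries.

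The Siglech cells stood apart from both. They held 1, 3, 1 and 2 cells of the 4 libraries, with Flt3 in 100% and Csf1r in 14.3% of them. Their 9 plasmacytoid genes summed to 15545 CPM, against 656 in the class II-high and 793 in the class II-low cells, and included Tcf4, a lineage-defining transcription factor (1210 against 87.7 and 105), and Ccr9 (1168 against 0.592 and 0). Siglech over all members was 5.86, 156, 109 and 224 CPM, carried by these cells, and the plasmacytoid list summed to 739, 1286, 1242 and 1748. Irf8, a transcription factor of plasmacytoid and type 1 dendritic cells, was at 4178 CPM in them, and values that rest on it were therefore also computed within the class II-high cells.

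Within the class II-high range, 61 cells with a Flt3 UMI were set beside 82 without, at similar median depths of 8937 and 9333 UMIs. H2-Ab1 itself was at 10261 and 10759 CPM. Cd7, a surface protein found on part of the type 2 dendritic cells, was 6.21 times higher in the cells with Flt3 (343 against 55.2), and Bcl11a, a transcription factor of dendritic cell progenitors, was 1.63 times higher (188 against 115), both in 4 of 4 libraries. The cells without Flt3 carried more of the low-affinity Fc receptor gene Fcgr3 (578 against 228), the inhibitory receptor gene Lilrb4a (462 against 180), Tgfbi (2000 against 1341) and Csf1r (615 against 478), again in 4 of 4 libraries. Lyz2 (2918 against 1119) was higher without Flt3 in 3 of 4 libraries. Fcgr1 went the other way, at 282 with Flt3 and 238 without, higher with it in 3 of 4 libraries. Mgl2 did not follow Flt3, being higher with it in 2 of 4 libraries. A cell without a Flt3 UMI may still transcribe the gene, given the low counts.

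Few genes set the population apart from all its neighbours in all libraries. Of 3577 genes with at least 50 CPM in members of every library, 3 stood at least 2-fold above the Xcr1 or Clec9a gate, the Ccr7 and Fscn1 gate, the monocytes and the macrophages of each library, and 10 at least 1.5-fold. Since the cells were selected on their counts, these are descriptions. The 3 were Ank, a pyrophosphate transporter (247, 207, 289 and 131 CPM), Trappc5, a subunit of a vesicle tethering complex (201, 239, 225 and 175), and Olfm1, a secreted olfactomedin (638, 752, 665 and 329). Batf, a transcription factor that pairs with IRF4, followed with 87.9, 69.3, 118 and 128, and Irf4 itself with 146, 124, 143 and 172. In isotype control Irf4 was at 92.6 in the Ccr7 and Fscn1 gate and 37.2 in the Xcr1 or Clec9a gate. It was at 18.5 in monocytes and 4.63 in macrophages there. The lowest fold of Irf4 over any gate was 1.58. Irf4 in the members stood at a similar level in all 4 libraries. Others among the 15 leading genes were Cdh1 (E-cadherin), Rin3 (a RAB5 activator), Orai1 (a calcium channel), St3gal4 (a sialyltransferase), Wfdc17, Cass4, Klrd1 (CD94), Eps8, Elmsan1 and Fgfr1. Klrd1 was at 291, 212, 289 and 137, and Cdh1 at 220, 207, 249 and 111, in both cases lowest in the combination.

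The rule itself kept the CD3 genes, Ncr1, Klrb1c, the C1q genes and Ccr7 low, so their low counts are no finding. Of the other markers of foreign cells, many were at or near 0. Of 11 T cell genes, 3 of them CD3 genes of the rule, the sum was 5.86, 37.9, 63.8 and 96.0 CPM, with Cd4 the most abundant. The Siglech cells carried most of it, at 914 CPM over all libraries, against 10.1 in the class II-high and 13.9 in the class II-low cells. Of 9 NK genes, 7 were at 0, which were Ncr1 and Klrb1c of the rule and, outside it, Prf1, Gzma, Eomes, Klra8 and Txk, and the sum of 264, 264, 200 and 96.0 was mostly Klrk1. Of 8 B cell genes, 4 were at 0, among them Ms4a1, Pax5 and Iglc2, and Ighm made up most of 392, 338, 279 and 337. All 6 mast cell genes were at 0. Of 10 neutrophil genes, Retnlg and Ly6g were at 0, the sum was 526, 229, 249 and 582, and Il1r2 was the most abundant. Of 12 fibroblast and tumor genes, Col1a1, Dcn, Lum, Krt8 and Cldn4 were at 0 and the sum of 236, 236, 279 and 131 was mostly Cdh1. The 10 genes of Ccr7 and Fscn1 cells summed to 142, 203, 88.1 and 483, against 20039 in those cells, with Ccl22 the most abundant and 75.2% of the Ccl22 UMIs of the combination in 1 cell. The 14 macrophage genes summed to 1288, 1791, 2096 and 1580, against 36287 in macrophages, with Mrc1 the most abundant. Without its deepest cell, single antibody B was at 1266, below isotype control.

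Levels in the combination were then compared with those in isotype control over 5432 genes with at least 50 CPM in members of at least 1 library. Of these, 284 (5.23%) were at least 2-fold higher and 322 (5.93%) at least 2-fold lower in the combination, with a median log2 ratio of -0.06. At any size 2411 were higher and 3014 lower. When libraries were scaled by the median of ratios in place of total UMIs, which lifted every log2 ratio of the combination over isotype control by 0.12, the counts were 351 and 248. Against single antibody A, 212 genes (3.90%) were at least 2-fold higher and 289 (5.32%) lower in the combination. Against single antibody B the counts were 414 (7.62%) and 452 (8.32%). Single antibody A differed least from isotype control, with 120 genes (2.21%) higher and 109 (2.01%) lower, and single antibody B had 178 (3.28%) higher and 193 (3.55%) lower. The 5 comparisons share libraries, and the smaller numbers of cells in single antibody B and the combination moved with the higher counts, a part that was not tested.

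MHC class II genes were lower in the combination. Of the 11 genes of the list, 10 were lower and 4 of them at least 2-fold (background 5.93%), none at least 2-fold higher (background 5.23%), and the median log2 ratio was -0.81 against -0.06 over all genes tested. The log2 ratio of H2-Eb1 went from -1.10 to -0.88 with 1 Cd209a UMI allowed. That of H2-Oa went from -1.50 to -0.98 with at least 5 Cd209a UMIs per cell, and both were then short of 2-fold. H2-Ab1 was at 10270, 8299, 8047 and 5958 CPM, 0.580 times isotype control in the combination (interval 0.552 to 0.610). The alpha chain gene H2-Aa was at 11987, 9190, 8254 and 6834. H2-Eb1, the beta chain of I-E, was at 10895, 8022, 8703 and 5100, and Cd74, the invariant chain, at 24125, 21956, 18157 and 16167. In each of these 4 genes isotype control was highest and the combination lowest, with the single antibodies between.

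Genes for loading peptide onto class II molecules followed. H2-DMb2, a chain of the peptide exchange factor H2-M, was at 119, 79.8, 97.2 and 17.5 CPM, and H2-DMa at 895, 922, 890 and 503. The modulators H2-Oa (189, 68.0, 125 and 66.9) and H2-Ob (158, 87.7, 112 and 34.9) were lowest in the combination as well. The coactivator Ciita was at 794, 663, 665 and 602, and the protease gene Ctss, which trims the invariant chain, was the exception at 3955, 3514, 3433 and 4093. The share of class II-high cells was also lower in the combination. Within the class II-high cells alone, where the limit itself used H2-Ab1, the list's median log2 ratio was -0.51 and H2-Ab1 stood at 0.767 times isotype control (interval 0.729 to 0.806).

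For the chain genes and Cd74, the direction differed from that in monocytes and macrophages of the same libraries, and for other class II genes and gates it was mixed. H2-Ab1 in the combination was 1.35 times isotype control in the monocytes (interval 1.31 to 1.39) and 1.38 times in the C1q macrophages (1.38 to 1.39), and Cd74 1.43 and 1.39 times, against 0.670 in the Cd209a cells (0.650 to 0.691). H2-Aa stood at 1.19 and 1.25 times and H2-Eb1 at 1.28 and 1.25 times in those cells. H2-DMb2 was lower in the macrophages too, at 0.566 times (0.505 to 0.634), and 1.23 times in the monocytes. In the Xcr1 or Clec9a gate H2-Ab1 was also lower in the combination, at 7008 against 7781 CPM in isotype control, and in the Ccr7 and Fscn1 gate higher, at 3935 against 1628. For H2-Ab1 and Cd74 the interval of the Cd209a cells lay below those of the monocytes and macrophages, but these intervals hold counting error alone, and the difference between cell types was not tested.

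**Figure D4:**
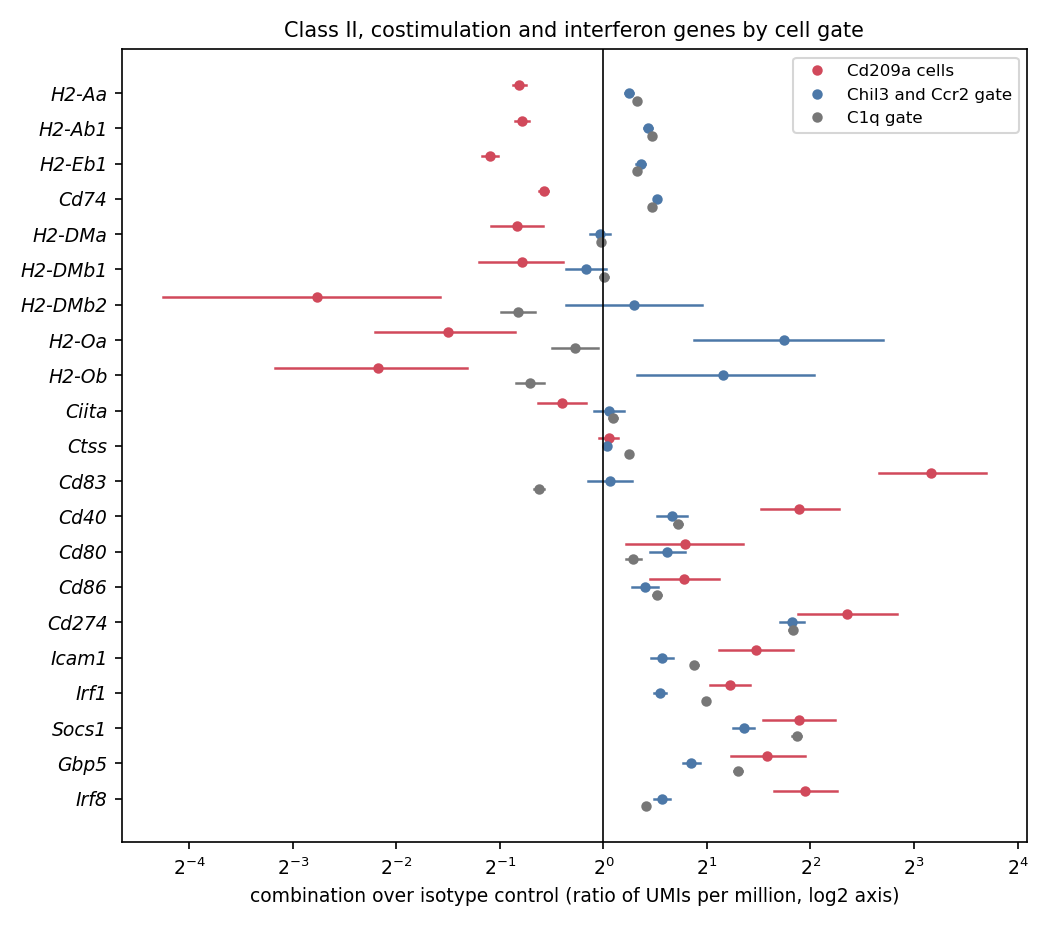
Ratio of the combination to isotype control (x axis, log scale) for MHC class II genes and for activation genes in Cd209a cells, Chil3 and Ccr2 monocytes and C1q macrophages; bars are 95% conditional exact intervals. H2-Ab1 lies at 0.580 in Cd209a cells and at 1.35 and 1.38 in monocytes and macrophages, while Cd83 lies at 8.94 in Cd209a cells and at 1.04 and 0.649 in the other two.

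Costimulatory and checkpoint ligand genes were higher in the combination. Of 14 genes listed, 9 reached the minimum level, 8 of these were higher and 5 at least 2-fold (5.23% over all genes), with a median log2 ratio of 1.13. Cd40, the receptor for help from CD4 T cells, was at 135, 198, 63.8 and 500 CPM, 3.71 times isotype control (interval 2.87 to 4.84). Cd274, which encodes PD-L1, was at 77.6, 78.5, 27.3 and 396, 5.10 times (3.69 to 7.14), and was found in 26.5, 29.5, 14.8 and 61.8% of members. Cd86, a ligand of CD28 and CTLA-4, was at 240, 188, 149 and 413, and Cd80, the other such ligand, at 87.9, 96.8, 63.8 and 151. For all 4 genes single antibody B was lowest and the combination highest. Icosl was the exception, at 214, 148, 173 and 163. In the class II-high cells alone Cd40 stood at 3.59 times isotype control and Cd274 at 4.85 times. Cd274 was also higher in the combination in monocytes (3.53 times) and macrophages (3.55 times), Cd40 by less (1.58 and 1.65 times).

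Of 15 dendritic cell maturation genes, 10 reached the minimum level, 7 were at least 2-fold higher (5.23% over all genes) and 1 at least 2-fold lower (5.93%), with a median log2 ratio of 1.43. Some genes stand on more than 1 of the lists, so the counts of different lists are not independent. Cd83, a surface protein that stabilises class II molecules and CD86 on mature dendritic cells, was at 58.6, 153, 33.4 and 524 CPM, 8.94 times isotype control (interval 6.32 to 12.9) and 3.42 times single antibody A. It was found in 27.9, 42.6, 18.5 and 67.6% of members, and in the class II-high cells alone the ratio was 9.55. In monocytes the same ratio was 1.04 and in macrophages 0.649. Traf1, an adaptor of TNF receptors, was at 105, 143, 75.9 and 288. Ccl17, a chemokine for CCR4, was the lower one, at 761, 495, 75.9 and 154, but a single cell held 55.2 to 72.0% of its UMIs in each library.

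Genes induced by interferon gamma were mostly higher in the combination. Of 21 listed, 18 reached the minimum level, 16 were higher, 8 at least 2-fold (5.23% over all genes) and none at least 2-fold lower (5.93%), and the median log2 ratio was 0.99. Irf1, a transcription factor induced early, was at 590, 543, 225 and 1376 CPM, Socs1, a feedback inhibitor of JAK kinases, at 155, 190, 51.6 and 573, and the GTPase gene Gbp5 at 161, 233, 48.6 and 483. Single antibody B was lowest for each of these, and of the 18 genes, 15 were at least 2-fold higher in the combination than in single antibody B (7.62% over all genes) and 7 than in single antibody A (3.90%). The log2 ratio of Irf1 to isotype control, 1.22, was 0.93 with at least 5 Cd209a UMIs per cell, short of 2-fold.

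The type I interferon list was less uniform against isotype control. Of its 15 genes at the minimum level, 1 was at least 2-fold higher and 1 lower (5.23 and 5.93% over all genes). The median log2 ratio of 0.14 turned to -0.16 in the class II-high cells alone and was 0.92 with at least 5 Cd209a UMIs per cell. Ifit3, a type I interferon target, was at 255, 114, 18.2 and 116 CPM, and Isg15, a ubiquitin-like modifier, at 332, 335, 146 and 730. Against single antibody A all 15 genes were higher in the combination (2533 of 5432 over all genes), 3 at least 2-fold (3.90%), with a median log2 ratio of 0.52. Against single antibody B, 11 of the 15 were at least 2-fold higher (7.62%).

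Chemokine genes were higher in the combination, but unevenly over cells. Of 18 listed, 13 reached the minimum level, 8 were at least 2-fold higher (5.23% over all genes) and 1 at least 2-fold lower (5.93%), with a median log2 ratio of 1.64. Cxcl9, a ligand of CXCR3 on effector T cells, was at 58.6, 467, 0 and 902 CPM and found in 17.6, 26.2, 0 and 44.1% of members, and 1 cell held 49.9% of its UMIs in single antibody A. Cxcl10, another ligand of CXCR3, was at 225, 447, 0 and 1460, and 1 cell held 57.1, 31.9 and 31.9% where it was found. In single antibody B, 9.11 CPM is the level of 3 UMIs, taken as the limit that a count of 0 allows. Ccl5 was at 29.3, 259, 9.11 and 1222, with 48.6% in 1 cell of the combination. Cxcl16, a membrane-bound ligand of CXCR6, was spread over more cells, at 296, 215, 301 and 556, with at most 27.3% in 1 cell. The median log2 ratio of the list ranged from 0.73 to 2.76 under other settings, and with the C1q limit at 0.5% the log2 ratio of Cxcl9 went from 3.94 to 1.14 and that of Cxcl10 from 2.70 to 1.57.

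Among 18 cytokine genes, Il12b, Il23a and Il10 had no UMI in any member, and 3 of the 6 at the minimum level were at least 2-fold higher, where 5.23% of all genes were. Il1b was at 613, 478, 261 and 1117 CPM, Tnf at 54.2, 62.8, 30.4 and 131, and Osm, a cytokine of the interleukin-6 family, at 64.4, 91.6, 91.1 and 247. All 12 NF-kB genes were at or above isotype control in the combination, 4 of them at least 2-fold (5.23% over all genes), with a median log2 ratio of 0.63. The inhibitor gene Nfkbia was at 432, 565, 395 and 1082 (a log2 ratio of 1.33 that was 0.57 with at least 5 Cd209a UMIs per cell), and the adhesion gene Icam1 at 167, 170, 109 and 463. Of 15 glycolysis and hypoxia genes at the minimum level 5 were at least 2-fold higher (again 5.23%), Slc2a1, the glucose transporter GLUT1, among them at 119, 230, 149 and 401, and of 6 arginine and itaconate genes 5 were. Among the latter Ass1, which makes argininosuccinate, was at 309, 347, 222 and 818, while 1 cell held 95.8% of Nos2 UMIs in the combination.

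For Fc gamma receptors, the target family of the treatment, none of the 6 genes of the list was at least 2-fold higher or lower in the combination than in isotype control, and the median log2 ratio was 0.18, or -0.06 in the class II-high cells alone. With 5.23 and 5.93% of all genes past these limits, a count of 0 among 6 is no result about the family. Fcgr2b, which encodes the inhibitory receptor, was at 548, 682, 468 and 655 CPM, 1.2 times isotype control (interval 1.01 to 1.41). Among activating receptors Fcgr1 was at 338, 187, 210 and 256, Fcgr3 at 382, 492, 431 and 704, and Fcgr4 at 214, 95.5, 97.2 and 230, and their signalling chain Fcer1g was at 1725, 1842, 1765 and 2327. Fcgr3 had the highest ratio, at 1.84 (1.54 to 2.20), and no order of the libraries was common to the family.

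Genes of lineage were less uniform. Of 9 conventional dendritic genes at the minimum level 7 were lower in the combination, 1 at least 2-fold (5.93% over all genes), and 2 were higher, 1 at least 2-fold (5.23%), with a median log2 ratio of -0.62. In the class II-high cells alone, no gene of this list was at least 2-fold lower. Itgax was at 534, 323, 425 and 276 CPM, Kit at 111, 66.7, 63.8 and 52.4 and Zbtb46 at 211, 162, 140 and 137, whereas Flt3 was at 76.1, 60.2, 60.8 and 78.6. The log2 ratio of Kit, -1.09, was short of 2-fold with 1 Cd209a UMI allowed (-0.76) and with the C1q limit at 0.5% (-0.83). The type 2 list of 11 genes at the minimum level divided 5 higher and 6 lower, 2 of them at least 2-fold lower (5.93%), with a median of -0.23 that turned to 0.14 in the class II-high cells alone. Mgl2 was at 754, 1192, 787 and 175 (a log2 ratio of -2.11 that was -1.27 with the C1q limit at 0.5%), and Sirpa, a receptor for CD47, at 808, 690, 729 and 850. Among 12 monocyte and macrophage genes 7 were higher and 5 lower, 2 at least 2-fold in each direction (5.23 and 5.93% over all genes). Their median log2 ratio was 0.56, and -0.03 in the class II-high cells alone. Ccr2, the receptor that brings monocytes into tissue, was at 893, 909, 954 and 401, and Plac8 at 1779, 2423, 1662 and 3305, so that 2 genes known from monocytes stood in opposite order. Ccr2 was also lower in the combination in monocytes (0.583 times) and macrophages (0.333 times), though the monocyte gate itself required a Ccr2 UMI. Irf8 was at 205, 442, 216 and 791, and in the class II-high cells alone at 143, 251, 60.9 and 642. The C-type lectins Mrc1 (321, 700, 553 and 98.9) and Cd209d, a relative of Cd209a (120, 160, 106 and 40.7), were lowest in the combination, 4 of 14 lectins being at least 2-fold lower than in isotype control (5.93% over all genes) and 2 higher (5.23%).

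All 14 cell cycle genes at the minimum level were lower in the combination, 10 at least 2-fold (5.93% over all genes), with a median log2 ratio of -1.42. These sums came from few cells. The list summed to 886, 939, 1871 and 294 CPM, and in single antibody B to 463 without its deepest cell. Mki67, a marker of dividing cells, had a UMI in 13.2, 11.5, 18.5 and 17.6% of members, so that the share of cells with it was not lowest in the combination. The median log2 ratio of the list was -0.15 with at least 5 Cd209a UMIs per cell and -2.40 with 1.

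Genes whose level in the combination lay apart from all other libraries were named by a rule of size. They differed by 2-fold or more from each of the 3 remaining libraries in 1 direction, were detected in at least 20% of members where high, and had no cell with over 25% of the UMIs there. The rule was met by 59 genes on the high side and 51 on the low side, of which the 10 with the largest ratio to isotype control on each side are given. On the high side Cd83 and Hs3st3b1, a heparan sulfate sulfotransferase, both reached 8.94 times, though Hs3st3b1 rested on 18 UMIs (5.86, 17.0, 3.04 and 52.4 CPM). Cdkn1a, the cell cycle inhibitor p21, was at 163, 313, 167 and 1106, Tnfaip2, a gene induced by TNF, at 77.6, 126, 91.1 and 497, and Sdc4, the proteoglycan syndecan-4, at 110, 191, 54.7 and 564. For Cdkn1a the ratio was 6.80 (interval 5.49 to 8.48), against 1.89 in monocytes and 1.39 in macrophages, and for Tnfaip2 6.41 (4.69 to 8.90), against 1.63 and 3.06. The others were Serpina3f, Abtb2, Rab20, Prdm1, which encodes BLIMP-1, and Dram1, with ratios from 5.96 to 8.28 at 52.4 to 87.3 CPM in the combination. These 5 and Hs3st3b1 reached the minimum of 50 CPM in the combination alone, where they were high, so the filter itself favoured a large ratio, and all 6 rested on 4 to 10 UMIs in isotype control. Several of the 10 were also higher in the combination in other gates. The monocyte and macrophage ratios were 3.35 and 2.98 for Serpina3f, 2.91 and 1.77 for Abtb2 and 1.80 and 1.56 for Rab20. They were 1.19 and 1.30 for Prdm1, 1.82 and 2.60 for Dram1, 2.63 and 1.42 for Sdc4 and 1.30 and 0.922 for Hs3st3b1. For Serpina3f the monocyte interval (2.47 to 4.60) overlapped that of the Cd209a cells (3.32 to 24.7). T cell ratios ranged from 0.961 for Serpina3f to 3.79 for Dram1. Over the main and 13 other settings the log2 ratios of the 10 genes in Cd209a cells lay at 1.05 or above. They ranged from 1.05 to 3.58 for Rab20, from 1.5 to 3.43 for Prdm1, from 1.5 to 2.70 for Dram1, from 1.92 to 3.53 for Abtb2, from 1.97 to 3.08 for Tnfaip2, from 2.37 to 3.59 for Serpina3f and from 2.41 to 3.71 for Hs3st3b1, and by less than 1.5 times from the printed value for Cd83, Cdkn1a and Sdc4.

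On the low side, Klri1, a killer lectin-like receptor, was at 149, 92.9, 66.8 and 8.73 CPM, 0.0584 times isotype control (interval 0.0119 to 0.176), and was found in 38.2, 23.0, 29.6 and 5.88% of members. Hspa1b, an inducible heat shock protein, was at 322, 101, 659 and 46.5, and was also lower in the combination in monocytes (0.364 times) and macrophages (0.169 times). Its log2 ratio in Cd209a cells, -2.79, was -0.63 with the C1q limit at 0.5% and -5.16 with at least 3 Cd209a UMIs per cell, the first no longer a 2-fold difference. With 1 Cd209a UMI allowed, the log2 ratio of Klri1 went from -4.10 to -2.24, that of Aacs from -3.01 to -1.38, that of Acaca from -2.42 to -1.10, that of H2-DMb2 from -2.76 to -1.82, that of G6pc3 from -2.55 to -1.41, that of Rtn1 from -2.27 to -1.58 and that of Klhl24 from -1.94 to -1.29. That of Acsl3 went from -2.59 to -1.94 in the class II-high cells alone. Acaca (93.7, 73.3, 79.0 and 17.5), Aacs (70.3, 49.7, 33.4 and 8.73) and Acsl3 (52.7, 22.2, 24.3 and 8.73) encode enzymes of lipid synthesis and fatty acid activation, a grouping made after their values were seen. Aacs and Acsl3 reached 50 CPM in isotype control alone, so the filter favoured a low ratio for both, and Aacs and Acsl3 had 3 UMIs each in the combination and Acaca 6. Their ratios, which the rule chose in the Cd209a cells and not in the other cells, were 0.186, 0.124 and 0.166 in the Cd209a cells, 0.788, 0.935 and 0.905 in monocytes and 0.801, 0.848 and 0.505 in macrophages. The macrophage interval of Acsl3 (0.469 to 0.543) overlapped that of the Cd209a cells (0.0326 to 0.524). H2-DMb2, Rtn1 (126, 60.2, 57.7 and 26.2), G6pc3, Bckdk and Klhl24 completed the list, with ratios from 0.147 to 0.261.

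**Figure D5:**
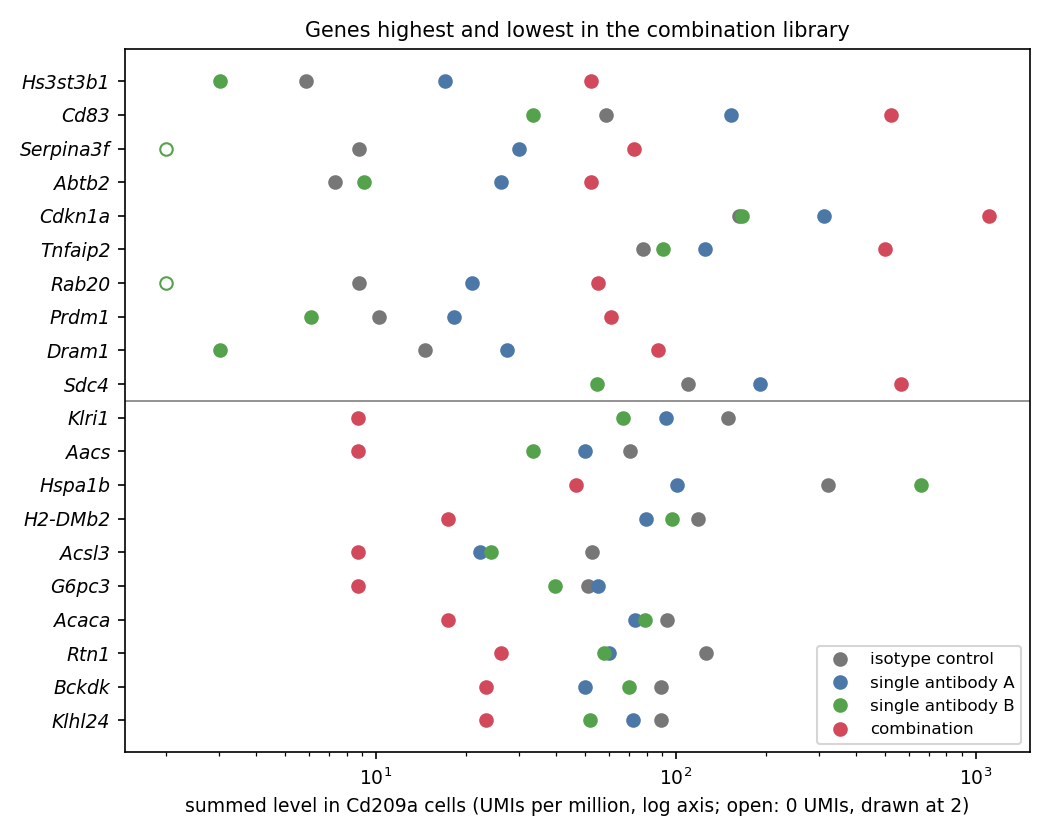
Summed level in Cd209a cells (x axis, CPM, log scale) of the 20 genes named by the rule, 10 higher (above the line) and 10 lower in the combination; each point is 1 library, coloured by group, and open points at the left edge are 0 UMIs. The combination lies apart from the other 3 libraries for each gene, as the rule requires, for example at 1106 against 163, 313 and 167 for Cdkn1a.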

How the data were processed

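The authors deposited raw UMI counts per gene and cell, without normalization, for 19059 genes in 4 libraries. The submitters' processing notes name Cell Ranger 7.0.0 and build mm10, whereas the matrix header names 7.2.0. Doublets and poor cells, which the methods remove later, were still present. Members and gene lists were chosen with earlier results of these data known.

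Cells were gated on counts in Python 3.11.15 (numpy 2.4.6, scipy 1.17.1, pandas 2.3.3), and UMIs were summed per library and divided by the members' total. No p-value was computed. Monocytes were gated by at least 5 Chil3 and 1 Ccr2 UMIs, because the planned gene Ly6c2 was not in the matrices. Macrophages needed 0.2% of C1q UMIs and 1 Adgre1 UMI, NK cells 2 UMIs of Ncr1 plus Klrb1c and T cells 3 UMIs of CD3 genes. Cells were drawn down 100 times to the 10th percentile of depth, and shallower cells were left out. Doublets were kept, since Scrublet (scanpy 1.11.5) called 0, 2, 1 and 0 cells and so had not worked, and 1 member lay among the 5% highest scores. Genes were named by 2 rules of size, over the other libraries (10 in each direction) and over the other gates (15), and from the lists by role. The gate and ratio steps were tested on simulated counts. For the ratio step 100 genes were raised and 100 lowered in the combination, with counting error alone. At a 4-fold change 100% and 86% passed the 2-fold limit, and 26 unchanged genes were called higher and 35 lower. At a 2-fold change 47% and 48% passed, and 19 and 34 unchanged genes were called. Of the listed genes 8 were not in the matrices and are not analysed here. Alternatives were other limits of the rule, other scalings and minimum levels, thinning, and the members without Siglech cells or deepest cells. Some listed genes are not reported here.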

Additional observations from a re-analysis of the deposited data

How the results depend on the processing

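The share of Cd209a cells in the combination, 0.536 times that in isotype control, ranged from 0.393 to 0.574 over 13 alternatives. Flt3 detection fell from 43.2% to 33.1% after drawing down to 1 depth and to 20.0% when 2 UMIs were required, and Csf1r detection from 91.6% to 84.2% when 2 UMIs were required. Genes at least 1.5-fold above all other gates numbered 10, and 19 with at least 5 Cd209a UMIs per cell. The counts of genes at least 2-fold higher and lower, 284 and 322, were 453 and 785 at a minimum of 20 CPM and 104 and 40 at 200, fewer or more genes being tested. The 43 genes followed through 13 settings kept their direction in all 559 values, of which 54 moved beyond the counting interval. Many of these genes had been chosen for their ratios in the same cells, and the settings reused many of those cells. The common direction is therefore no independent check. The settings without Siglech cells, with class II-high cells alone, without the deepest cell of each library and with no limit but Cd209a were chosen after seeing the data, as were the repeats of the gate comparison. No paired analysis was possible because each group is 1 library, so that the groups share no second replicate number and none can be left out of a comparison between groups. Contrasts within libraries are given by the number of libraries that show the direction. Small sums of UMIs limit all single-gene ratios.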
